A study of Caenorhabditis elegans with 2 samples.

Results

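The genes described here encode the protein factors that carry translation through initiation and elongation, and the aminoacyl-tRNA synthetases, which load amino acids onto tRNAs. They were chosen by symbol among the protein-coding genes of Caenorhabditis elegans, as symbols starting with eif- or eef-, or made of 1 letter followed by ars- and a number. This gave 63 of 19985 genes, namely 25 eif- genes, 6 eef- genes and 32 synthetase genes. The question was where the GATA transcription factor ELT-1 was found at their promoters. The data came from chromatin immunoprecipitation and sequencing (ChIP-seq) of eGFP-tagged ELT-1 in whole animals at the L3 larval stage, of both sexes and unknown age. All samples belonged to 1 group, the strain OP354, which has the unc-119 allele tm4063 on chromosome III and the inserted transgene wgIs354 for tagged elt-1. There were 2 biological replicates and no second condition. The promoter that drives the transgene is not given in the labels. Because whole larvae were used, a weak signal in many cells and a strong one in few cells cannot be told apart.

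In initiation, eIF2 brings the initiator tRNA to the small ribosomal subunit, eIF2B recharges eIF2 with GTP, and the many-subunit eIF3 holds the initiating complex together. In elongation, eEF1A delivers each loaded tRNA, the eEF1B exchange subunits, in a complex with eEF1G, recharge eEF1A, and eEF2 moves the ribosome along the mRNA. These genes are used in every growing cell. ELT-1 is known as a regulator of epidermal fate that binds DNA through GATA sequences. Worm mRNAs are often trans-spliced, so an annotated transcript start can lie downstream of the place where transcription begins.

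Around every annotated start of a coding transcript, the 1000 bp upstream and the 200 bp downstream were taken as the promoter window, on the build ce11. The authors' list of reproducible peaks, thresholded by the irreproducible discovery rate (IDR), held 1910 peaks with signal values from 27.7 to 1900, and was the 1910 strongest of 30000 pooled peaks. The pooled list and the replicate lists, of 29029 and 30000 peaks, go down to −log10 q values of 0.0361, 0.147 and 0.0979, so they can hold background. Signal is the authors' own value for each peak, and the values of different lists are not on 1 scale, so ranks are given within each list. Read depth is unknown.

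An IDR summit lay in the promoter window of 9 of the 63 genes, 14.3%, where the share of all protein-coding genes was 5.03%. The 9 were 5 of the 6 elongation factor genes (eef-1A.1, eef-1A.2, eef-1B.1, eef-1G and eef-2), 2 of the 25 initiation factor genes (eif-3.C and eif-3.J) and 2 of the 32 synthetase genes (aars-1 and ears-2). Leaving out the elongation factors, the count was 4 of 57 genes, 7.02%. A pooled summit of any strength lay in the window of 44 of the 63 genes, 69.8%, against 41.2% of all protein-coding genes. Among the genes with a pooled summit, 9 of 44 had an IDR summit, 20.5%, against 12.2% of all such genes, and without the elongation factors 4 of 38 did, 10.5%. No test of these shares was made, since the genes were chosen with earlier results of these data known.

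**Figure D1:**
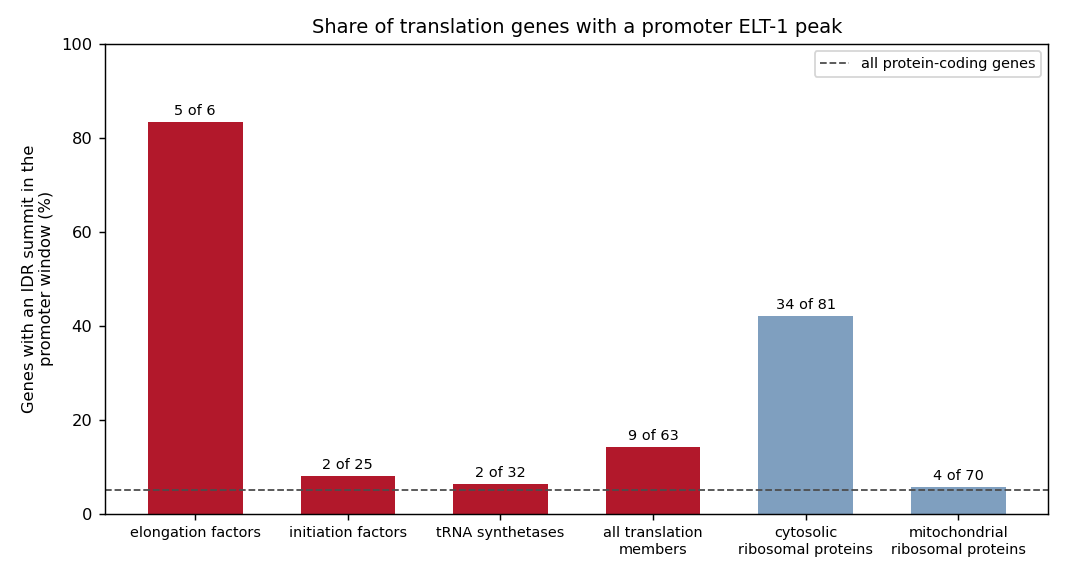
Share of genes with an IDR summit in their promoter window (percent, y axis) by gene family (x axis); red bars are the translation genes, blue bars the ribosomal protein genes, the number of genes stands over each bar, and the dashed line is the share of all protein-coding genes, 5.03%. The elongation factors stand at 5 of 6, and the initiation factors and synthetases at 2 of 25 and 2 of 32, close to the line.

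The sequences below show the DNA at the summits of the eef-1A.1, eef-1A.2, eef-1G, aars-1 and ears-2 peaks, on the coding strand of each gene. They are from the RefSeq genome sequence of WBcel235, the same build as ce11. The summits of the other elongation factor peaks, eef-1B.1 and eef-2, are not printed, and neither had GATA or GAGAGA within 50 bp. Capitals mark GATA and GAGAGA, read on either strand, so that TATC is GATA on the other strand. Where GATA has A or T before it and A or G after it, the form known as WGATAR, all 6 letters are in capitals. Annotated untranslated bases were left out. The eef-1A.1 stretch is chrIII:6971977-6972197 (minus strand), 221 bp with the summit at position 111. The eef-1A.2 stretch is chrX:7823184-7823284 (plus strand), and that of eef-1G is chrV:10965599-10965699 (plus strand). The aars-1 stretch is chrII:11464498-11464565 (minus strand), and that of ears-2 is chrIV:390469-390528 (minus strand). In these 4 the summit is at position 51.
eef-1A.1: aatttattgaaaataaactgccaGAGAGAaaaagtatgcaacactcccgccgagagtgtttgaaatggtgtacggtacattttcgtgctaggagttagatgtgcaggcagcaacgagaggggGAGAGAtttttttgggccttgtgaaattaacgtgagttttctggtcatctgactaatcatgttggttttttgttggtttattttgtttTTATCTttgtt
eef-1A.2: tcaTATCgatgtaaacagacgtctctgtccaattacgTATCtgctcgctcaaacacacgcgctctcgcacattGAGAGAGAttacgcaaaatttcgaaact
eef-1G: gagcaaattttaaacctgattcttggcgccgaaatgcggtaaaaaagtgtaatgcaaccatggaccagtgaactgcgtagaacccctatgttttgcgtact
aars-1: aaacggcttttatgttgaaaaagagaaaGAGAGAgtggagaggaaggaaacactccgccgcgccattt
ears-2: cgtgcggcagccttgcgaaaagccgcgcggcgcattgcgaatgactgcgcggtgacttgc

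None of the 9 summits had a WGATAR site within 50 bp on either strand. By the approximation that a count of 0 allows up to 3, the share could be up to 33.3%. With 9 peaks this limit is rough, and it is not a test. A WGATAR site lay within 50 bp of 33.1% of the 849 IDR peaks in any promoter window and 39.7% of all 1910 IDR peaks. Both sets include peaks on mitochondrial DNA, and 825 and 1882 of their peaks were nuclear. Within 100 bp the count was still 0 of 9, where 48.3% of promoter IDR peaks had one. The nearest site to a summit was the AGATAA of eef-1A.1, 103 bp away and seen as TTATCT near the end of its stretch. In the remaining 8 peaks the nearest site was 128 to 556 bp away. The median distance over the 9 was 230 bp, against 104 bp for 825 nuclear promoter IDR peaks and 217 bp for the 31 promoter IDR peaks of cytosolic ribosomal protein genes.

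The bare letters GATA lay within 50 bp of 3 of the 9 summits, at eef-1A.2 (12 bp away), ears-2 (37 bp) and aars-1 (49 bp), which is 33.3%, against 56.8% of promoter IDR peaks. The GATA of ears-2 and that of aars-1 lie outside the printed stretches. GATA also occurs inside each WGATAR site, so the counts overlap. GAGAGA lay within 50 bp of 3 of the 9, at eef-1A.1, eef-1A.2 and aars-1, also 33.3%, against 22.7%. Within 100 bp the order was the other way round, 33.3% against 36.5%. TTTCAG, the letters of a typical worm splice acceptor, lay within 50 bp of 0 of the 9, against 7.18% of promoter IDR peaks, and within 100 bp of 2 of the 9, 22.2%, against 16.1%. Neither motif thus separated the 9 peaks from the rest in the same direction at both distances. Over the whole promoter window of the outermost start, 59 of the 63 genes had a WGATAR site, 93.7%, and so did 93.3% of all protein-coding genes. Of the 9 genes with an IDR summit, 8 had a WGATAR site in that window.

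**Figure D2:**
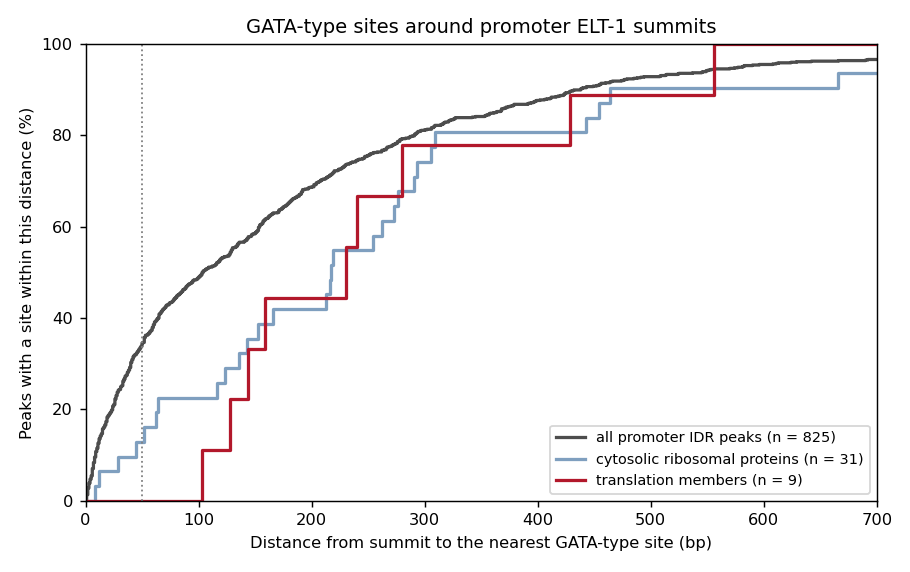
Share of promoter IDR peaks (percent, y axis) that have a WGATAR site within a given distance of the summit (bp, x axis), for the 9 translation gene peaks, 31 cytosolic ribosomal protein peaks and 825 nuclear promoter peaks; the dotted line is 50 bp. The line of the translation genes leaves 0 at 103 bp.

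The weaker pooled summits in these promoters also had few sites. Of 52 pooled summits in the members' windows outside the IDR list, 3 had WGATAR within 50 bp, 5.77%, against 21.3% of 8903 promoter pooled summits over 500 bp from every IDR summit. Within 100 bp the shares were 23.1% and 37.6%. Around the 9 IDR summits the 101 bp of DNA had a median of 47 G or C bases, against 45 for promoter IDR peaks, and around the 52 weaker summits 38, against 37.

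Among elongation factors, the strongest peak was at eef-1A.1 (WBGene00001168), whose promoter is widely used to drive transgenes in many tissues under the older gene name eft-3. Its peak (III, 6971917 to 6972256) had a pooled signal of 53.4, rank 555 of the pooled list. Replicate 1 gave 21.0 at rank 568 and replicate 2 gave 31.4 at rank 696, so both placed it among their 1910 strongest peaks. The summit was intergenic, 375 bp upstream of the eef-1A.1 start. It was also 166 bp upstream of rfc-4, a replication factor C gene on the opposite strand whose start is the nearer one.

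The second eEF1A gene, eef-1A.2 (WBGene00001169), was the only member on the X chromosome. Its peak (X, 7823064 to 7823403) had a pooled signal of 42.1 at rank 897, with 14.8 at rank 1115 in replicate 1 and 27.8 at rank 916 in replicate 2. The summit was intergenic, 420 bp upstream of the start, and no other coding gene shared it. Both eEF1A genes thus had their summits farther upstream than the other elongation factors did, at 375 and 420 bp.

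The eef-1G peak (V, 10965479 to 10965818), at the gene for the eEF1 gamma subunit, had a pooled signal of 53.4 at rank 556. Replicate 1 gave 23.0 at rank 467 and replicate 2 gave 28.2 at rank 883. Its summit was 70 bp upstream of eef-1G and 110 bp upstream of ctf-4, a gene of the replication fork on the opposite strand.

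The eef-2 peak lay on chromosome I at 9163333 to 9163672, with a pooled signal of 35.97 at rank 1210. It ranked 844 in replicate 1 (signal 17.1) and 2320 in replicate 2 (signal 16.5), so replicate 2 alone did not place it among its 1910 strongest. The summit was 28 bp upstream of eef-2 and 237 bp upstream of clsp-1, the gene for the claspin homologue, on the opposite strand.

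The eef-1B.1 peak (III, 7973206 to 7973545), at a gene for an eEF1B subunit, was the one on which the replicates differed most. The pooled signal was 33.8 at rank 1357. Replicate 2 gave 30.8 at rank 736, but the matching summit of replicate 1 had a signal of 6.13 at rank 6015. The summit fell 10 bp downstream of the start, in the 5' UTR, and also in the non-coding gene F54H12.9. It was 341 bp upstream of aco-2, which encodes mitochondrial aconitase, on the opposite strand. A second, weaker summit in the eef-1B.1 window was the strongest there in replicate 1, 838 bp upstream with a signal of 8.73 at rank 2911.

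The second gene for an eEF1B subunit, eef-1B.2, was the elongation factor without an IDR summit. Its strongest pooled summit had a signal of 17.1 at rank 3867. Replicate 2 gave 16.7 at rank 2256, and replicate 1 listed no summit in the window.

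**Figure D3:**
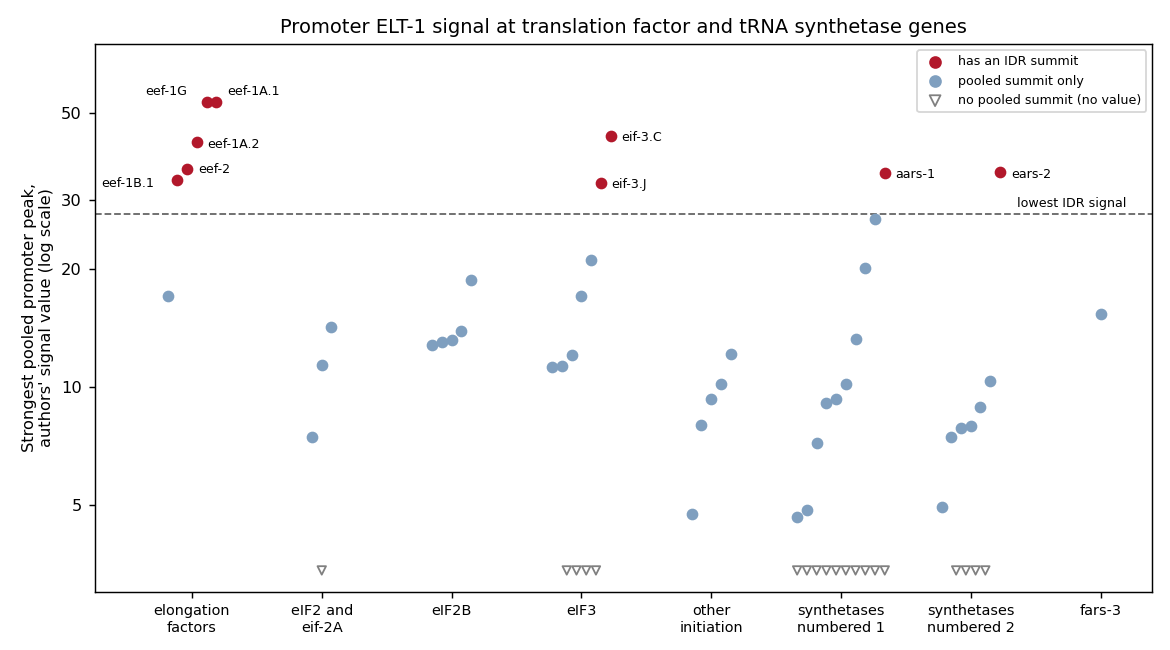
Authors' signal value of the strongest pooled peak in each promoter window (y axis, log scale) for the 63 genes by group (x axis); red points have an IDR summit, blue points only a weaker pooled summit, and open triangles, at the foot, no pooled summit and no value. The dashed line is the lowest IDR signal, 27.7, and 5 of the 6 elongation factors lie over it.

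Among initiation factors, eif-3.C and eif-3.J, both eIF3 subunit genes on chromosome I, had IDR summits. For eif-3.C, a core subunit, the peak (9979741 to 9980080) had a pooled signal of 43.7 at rank 837, with 18.3 at rank 733 in replicate 1 and 26.8 at rank 978 in replicate 2. The summit was intergenic, 249 bp upstream of the start, and was in no other coding gene's window. For eif-3.J, a subunit loosely bound to eIF3, the peak (13434430 to 13434769) had a signal of 33.2 at rank 1404, with 11.5 at rank 1769 and 22.1 at rank 1425 in replicates 1 and 2. That summit was 889 bp upstream of eif-3.J and lay in the 3' UTR of slc-25A46, a gene of the mitochondrial carrier family.

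The remaining 9 eIF3 genes had lower signals or none. Their strongest pooled summits were at eif-3.B (21.1, rank 2848) and eif-3.G (17.1, rank 3864), eif-3.D, eif-3.E and eif-3.I were between 11.2 and 12.1, and eif-3.F, eif-3.H, eif-3.K and eif-3.L had no pooled summit in the window. Over the 7 eIF3 genes with a pooled summit the median signal was 17.1.

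The eIF2B genes, which encode the subunits that recharge eIF2, all had summits below the IDR list. The pooled signals of the 5 genes ran from 12.8 to 18.7 with a median of 13.2, and eif-2Bbeta had the highest. In replicate 2, eif-2Bbeta had a signal of 18.5 at rank 1907, just inside the 1910 strongest, whereas replicate 1 listed no summit in its window. The list of eIF2 subunit genes and eif-2A, a separate factor, had pooled summits at 3 of 4 genes, at 14.2 for eif-2gamma, 11.4 for eif-2beta and 7.46 for eif-2alpha. The others, eif-1, eif-1.A, eif-2D, eif-6 and eif-4A3, whose product in other animals belongs to the exon junction complex, had summits between 4.74 and 12.2. For comparison, a pooled summit of any strength lay in the window of 69.8% of all members and 41.2% of all protein-coding genes.

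Among the 32 synthetases, 18 had a pooled summit, 56.2% against 41.2% of all protein-coding genes, with a median signal of 9.21, and 14 had none. Over all 8239 protein-coding genes with a pooled summit the median was 9.60. It was 12.5 over the 20 initiation factor genes with one and 39.0 over the 6 elongation factor genes.

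The synthetases with IDR summits were aars-1 and ears-2, whose RefSeq products are the mitochondrial alanine and glutamate enzymes. RefSeq product names mention mitochondria for 4 members, a property looked up after the values were seen, and of these pars-2 and rars-2 had no IDR summit. The product names of other synthetases, such as dars-2, iars-2 and lars-2, give no compartment, so these 4 may not be all the mitochondrial enzymes. By symbol, 1 of 20 synthetases numbered 1 (5%) and 1 of 11 numbered 2 (9.09%) had an IDR summit, against 5.03% of all protein-coding genes. The aars-1 peak (II, 11464345 to 11464684) had a signal of 35.2 at rank 1252, with 16.8 at rank 877 in replicate 1 and 18.8 at rank 1871 in replicate 2. Its summit was 18 bp upstream of aars-1 and 379 bp upstream of rga-1, on the opposite strand. The ears-2 peak (IV, 390308 to 390647) had a signal of 35.3 at rank 1249, with 11.9 at rank 1651 and 21.7 at rank 1464 in replicates 1 and 2. Its summit was 10 bp upstream of ears-2 and 82 bp upstream of uncp-18, on the opposite strand.

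Of the synthetases outside the IDR list, fars-1, on chromosome I, came closest, with a pooled signal of 26.9 at rank 1994, just under the lowest IDR signal of 27.7. It ranked 3663 in replicate 1 and 3155 in replicate 2. The threonine enzyme gene tars-1 followed at 20.1 (rank 3052), with ranks of 2135 and 2364 in replicates 1 and 2. The genes aars-2, cars-1, dars-1, fars-2, fars-3, gars-1, hars-1, iars-1, nars-2, pars-1, pars-2, qars-1, sars-2 and yars-2 had pooled summits between 4.64 and 15.3. No pooled summit lay in the windows of dars-2, ears-1, iars-2, kars-1, lars-1, lars-2, mars-1, nars-1, rars-1, rars-2, sars-1, vars-1, wars-1 and yars-1. Among all members, 7 had no summit in the window in the pooled list or either replicate list, namely eif-2A, eif-3.F, eif-3.L, rars-1, rars-2, wars-1 and yars-1. The share of all protein-coding genes without a summit in any of these lists was not computed. List by list, 41.2% of all protein-coding genes had a pooled summit, 39.7% one of replicate 1 and 41.5% one of replicate 2.

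Most of the 9 peaks lay between 2 genes. Of the 9 summits, 7 were intergenic, and 6 were also in the promoter window of a coding gene on the opposite strand, always upstream of that gene's start. Sharing occurred for 66.7% of the members with an IDR summit, and for 40.3% of all protein-coding genes with one. For these 6 peaks the lists do not say which of the 2 genes the signal belongs to. They are the peaks of eef-1A.1, eef-1B.1, eef-1G, eef-2, aars-1 and ears-2. Among the elongation factors only eef-1A.2 thus had a peak that was not shared. The median summit was 70 bp upstream of the member's start, and 265 bp upstream over all genes with an IDR summit. Each of the 9 peaks was 340 bp wide, and all 305 stretches of 36 bases in each peak occurred once in the genome.

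**Figure D4:**
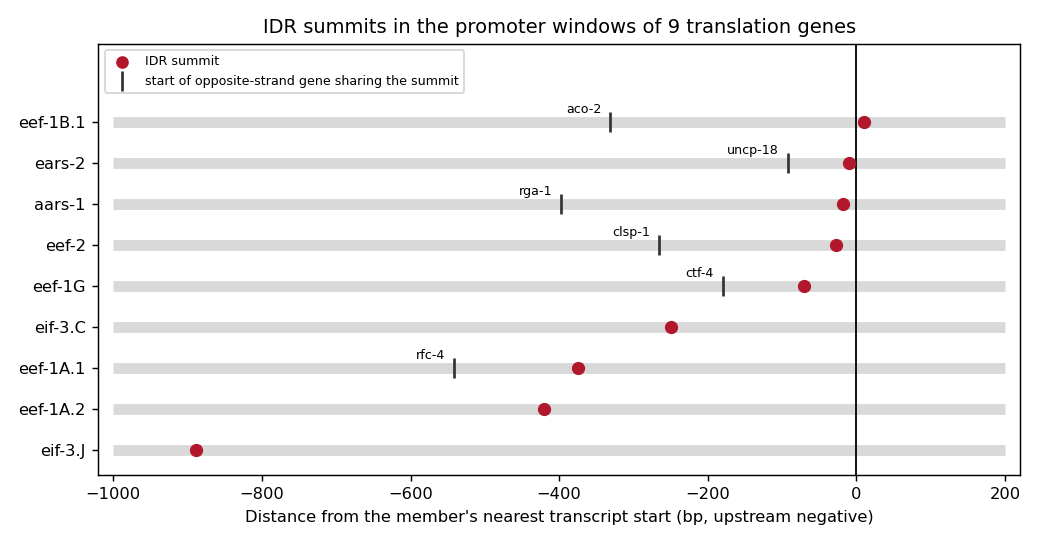
Position of the IDR summit (red point) relative to the nearest transcript start of each of the 9 genes (x axis, bp, upstream negative; grey bar, the promoter window); a black tick is the start of an opposite-strand gene that shares the summit. In 6 of 9 genes such a start lies upstream of the summit.

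A coding gene on the same strand ended within 500 bp upstream of 17 of the 63 members, or overlapped the start, as C25A1.20 did at iars-2. Closely spaced genes on the same strand are found in worm operons, where a downstream gene need not have a promoter of its own. Of these 17 genes, 1 had an IDR summit (eif-3.C, 401 bp downstream of sys-1), and of the remaining 46 genes 8 did, which is 5.88% and 17.4%. Over all protein-coding genes the shares were 2.83% and 5.62%.

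For the 54 members without an IDR summit in the window, the nearest one lay at a median of 25633.5 bp from a start, against 27312 bp for all 18979 protein-coding genes without one. The 3 nearest lay 1764 bp upstream of eif-2alpha (signal 31.3), 1825 bp upstream of eif-3.G (signal 47.3) and 1866 bp upstream of iars-2 (signal 32.4). An IDR summit inside the gene was found for 0 of these 54 genes, and for 1.64% of all genes without one in the window.

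The peaks of the 9 genes were of middling strength within the IDR list. Their signals ran from 33.2 to 53.4 with a median of 35.97, against a median of 40.04 for promoter IDR peaks and 40.8 for all IDR peaks. Both replicates placed 7 of the 9 among their 1910 strongest peaks, 77.8%, against 448 of 849 promoter IDR peaks, 52.8%. The exceptions were eef-1B.1, missing from those of replicate 1, and eef-2, missing from those of replicate 2. Counted in each replicate alone, 8 members (12.7%) had one of the 1910 strongest summits of replicate 1 in the window, against 4.59% of all genes. For replicate 2 it was 9 members (14.3%), against 5.03%. The 9 of replicate 2 included eif-2Bbeta.

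Other definitions changed how many members were counted. With 500 bp upstream and 100 bp downstream of the start, 8 members (12.7%) had an IDR summit, without eif-3.J, and 3.72% of all genes did. With 2000 bp upstream the count was 12 (19%), against 7.04% of all genes, through the 3 distant peaks of eif-2alpha, eif-3.G and iars-2. With only the outermost start it was 9 (14.3%), against 4.45%. Giving each peak to the nearest start at any distance, with no promoter window, counted 8 members (12.7%), against 7.72% of all genes. The gene rfc-4 then took the eef-1A.1 peak. The stronger 955 IDR peaks lay at 4 members (eef-1A.1, eef-1A.2, eef-1G and eif-3.C), 6.35%, against 2.39%. Peaks in no other coding gene's window lay at 3 members (eef-1A.2, eif-3.C and eif-3.J), 4.76%, against 3.06%. For pooled summits the shorter window gave 40 members (63.5%), against 29.6% of all genes, and the longer one 51 (81%), against 53.4%. Any summit of replicate 1 lay in the window of 42 members (66.7%), against 39.7%, and any of replicate 2 in that of 46 (73%), against 41.5%.

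**Figure D5:**
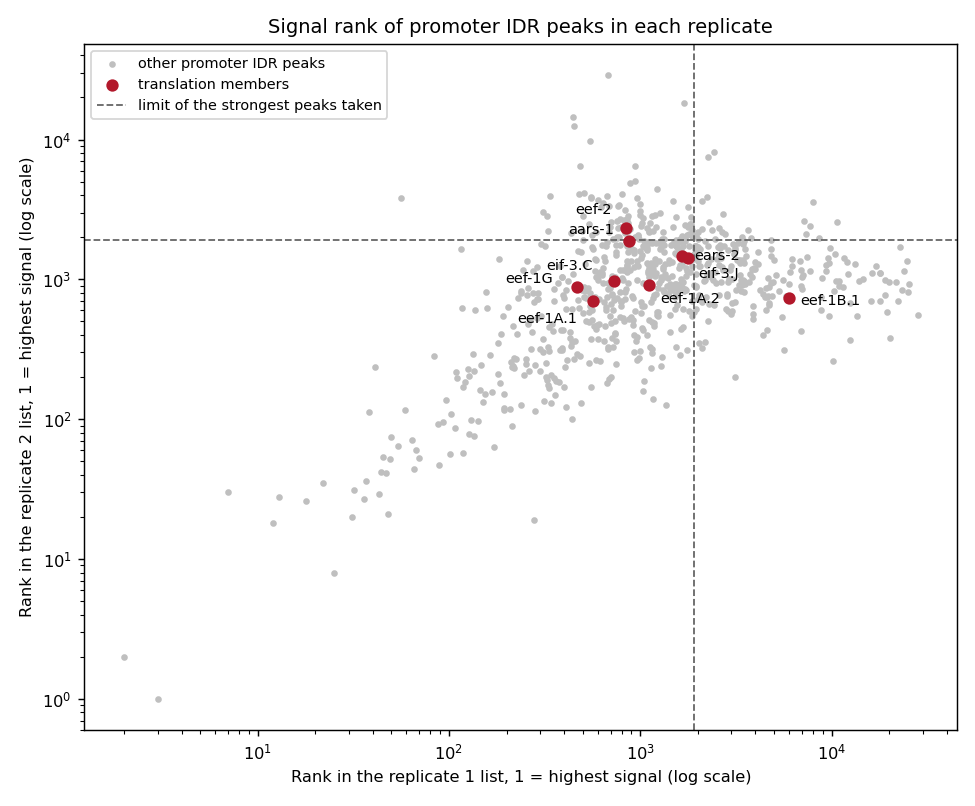
Rank of each promoter IDR peak in the replicate 1 list (x axis, log scale) and the replicate 2 list (y axis, log scale), where 1 is the highest signal, for the 761 of 849 peaks with a summit within 100 bp in both; the dashed lines are at rank 1910. The members (red) lie below both lines except eef-1B.1, at rank 6015 in replicate 1, and eef-2, at rank 2320 in replicate 2.

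Other genes of the pathway were looked at from a list of 31 symbols, of which 30 matched the annotation. An IDR summit was in the window of 4 of the 30, 13.3%, against 5.03% of all protein-coding genes. A pooled summit was in the window of 26 of the 30 genes, against 41.2% of all protein-coding genes. The highest was at iff-2, which encodes eIF5A, a factor that helps the ribosome past difficult peptide bonds, with a signal of 104 at rank 137. Its ranks were 84 in replicate 1 and 284 in replicate 2, and it lay 58 bp upstream of the start, stronger than any member's peak. The iff-2 summit was also 877 bp upstream of F54C9.14, on the opposite strand. Next came drr-2, an eIF4H-like gene, with a signal of 69.1 at rank 329 and ranks of 389 and 314 in replicates 1 and 2. Its summit was also 192 bp upstream of set-16, a histone methyltransferase gene.

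The other two were abcf-2 and pab-2. The summit counted for abcf-2, an ABC-family ATPase gene, had a signal of 48.6 and lay 892 bp upstream of it, but 33 bp upstream of one of 2 other coding genes that share it, ant-1.1 and T27E9.2. Its ranks were 4623 in replicate 1 and 432 in replicate 2. For pab-2, a poly(A)-binding protein gene on X, there were 2 IDR summits, with signals of 33.4 and 32.1, in an upstream intergenic stretch and in the 5' UTR. Both were outside the 1910 strongest of replicate 1, at ranks 3293 and 3951, and inside those of replicate 2, at ranks 917 and 1195. No IDR summit lay in the windows of the listed genes for the cap-binding proteins ife-1 to ife-5, the scaffold ifg-1, the helicase inf-1, the release factors erfa-1 and erfa-3, the stress kinases gcn-2 and pek-1, or the mitochondrial factors tufm-1, tufm-2, tsfm-1 and gfm-1.

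The summits of iff-2, the strongest of the pathway, and of pab-2, which has a GATA site, are shown for contrast, as 101 bp on the coding strand with the summit at position 51 and the same capitals. The iff-2 stretch is chrII:8561375-8561475 (minus strand), and that of pab-2 is chrX:13527526-13527626 (minus strand). The pab-2 stretch holds AGATAG 8 bp from the summit, and the iff-2 stretch holds GATA but no WGATAR.
iff-2: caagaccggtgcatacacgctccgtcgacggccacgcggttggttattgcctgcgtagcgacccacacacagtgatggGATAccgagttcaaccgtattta
pab-2: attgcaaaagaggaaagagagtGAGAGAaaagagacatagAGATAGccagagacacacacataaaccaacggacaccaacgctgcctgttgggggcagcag

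An IDR summit was in the window of 34 of 81 cytosolic ribosomal protein genes, 42%, and of 4 of 70 mitochondrial ribosomal protein genes, 5.71%. It was 14.3% for the members, which rests on the elongation factors. The initiation factors and synthetases alone stood at 7.02%, beside 5.03% of all protein-coding genes. Of the elongation factor peaks, only that of eef-1A.2 was in no other coding gene's window. Counting only peaks in no other coding gene's window, the members stood at 4.76%, against 3.06% of all genes. WGATAR lay within 50 bp of 4 of the 31 distinct cytosolic ribosomal protein peaks, 12.9%, and of 0 of the 9 member peaks. The differences between these families were not tested.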

How the data were processed

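ChIP-seq of eGFP-tagged ELT-1 was deposited as peak lists for 2 replicates of 1 group. The library file lists show that the authors called a relaxed list for replicate 1, for replicate 2 and for the pool of both, each against a control, and derived the IDR list from these. For aligner, peak caller and threshold, nothing is given in the sources used here. The signal value (scaling not stated), the −log10 q and the summit offset of each peak are the authors', per the deposited files. All IDR peaks share 1 −log10 q of 3.83, so peaks were ranked by signal. No value was identical between the replicate lists. The control and the ce10 lists were not used.

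Summits on ce11 were assigned to promoter windows of Ensembl release 115 protein-coding genes with Python 3.11.15. Replicate summits matched within 100 bp. Sites were searched on both strands in the WBcel235 sequence. The assignment was checked on simulated data: 200 of 200 summits placed in windows were found, and 0 of 400 placed outside. All 1200 sites written into test sequences were found.

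With 1 group there was no contrast, and no test was made. The members and lists were chosen with earlier results of these data known. Named genes were all members with an IDR summit, the 6 next by pooled signal, those placed among the strongest by 1 replicate only, and other pathway genes with an IDR summit; further genes are named to account for every member. Alternatives changed the window, the start, the assignment, the list and the site.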

Additional observations from a re-analysis of the deposited data

How the results depend on the processing

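The 9 members with an IDR summit were 14.3%, against 5.03% of all protein-coding genes. They fell to 4 in the stronger 955 IDR peaks, 6.35% against 2.39% of all. Counting only peaks in no other coding gene's window they fell to 3, 4.76% of the 63 members against 3.06% of all genes. They were 8 to 12 (12.7% to 19%) under the other windows and starts, against 3.72% to 7.72% of all genes. With the strongest peaks of 1 replicate alone the count was 8 to 9 (12.7% and 14.3%), against 4.59% and 5.03%, and 8 of the 9 genes were present in each case. The members with a pooled summit numbered 44 (69.8%, against 41.2% of all genes). They were 40 to 51 (63.5% and 81%) under the other windows, against 29.6% and 53.4%. In 1 replicate they were 42 to 46 (66.7% and 73%), against 39.7% and 41.5%. WGATAR stayed at 0 of 9 within 100 bp, against 48.3% of promoter IDR peaks. It was also 0 in either replicate alone, where no share over other peaks was computed. GATA alone within 50 bp gave 3 of 9, 33.3%, against 56.8% of promoter IDR peaks. The median rank percentile of the 9 peaks was 96.0 in the pooled list, 97.0 in replicate 1 and 96.7 in replicate 2. The pooled value was bound to be high, since the IDR list was the 1910 strongest of 30000 pooled peaks. Within the IDR list the median percentile of the 9 was 36.67. The cause of the differences between settings was not tested. Read depth is unknown, so a member outside the IDR list is not shown to lack ELT-1.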
